A study of Mus musculus with 5 samples.

Results

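Fibroblast growth factor (FGF) ligands and receptors were followed in nuclei of the mouse paraventricular hypothalamus (PVH), the nucleus that holds the oxytocin neurons. The 7 genes, Fgf1, Fgf2, Fgf9, Fgf10, Fgfr1, Fgfr2 and Fgfr3, were taken by symbol from the 31053 mouse genes in the deposited matrices, and all 7 were found there. The list was proposed with earlier results of these data known, so the levels below are descriptions.

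The series holds 5 single-nucleus libraries made with 10x Genomics droplets, and each pooled the PVH of 2 to 4 males of C57BL6 background. In the first experiment, OT-Cre mice with the Ai9 tdTomato reporter were exposed on embryonic day 12.5 to saline (10 mL/kg, 1 library) or to valproic acid (VPA, 500 mg/kg, 1 library) and were sampled at 5 weeks. VPA is an antiepileptic drug, and exposure to it before birth is used in rodents as a model of autism. In the second experiment, OT-Cre mice carrying Rosa26dreaddm3, which gives Cre-expressing cells the designer receptor hM3, were all exposed to 500 mg/kg VPA on embryonic day 12.5. They received saline (the hM3 control, 1 library) or clozapine N-oxide (CNO, the hM3 agonist, 2 libraries) at postnatal day 2, with tissue taken at 5 to 7 weeks. All 5 libraries thus carry OT-Cre, and every library of the second experiment is VPA-exposed. The labels of the second experiment also mention an adeno-associated virus given in the PVH and supraoptic nucleus. Sorting favoured larger nuclei, so shares of classes are shares of sorted nuclei.

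FGFs are secreted proteins that signal through receptor tyrosine kinases together with heparan sulfate on the cell surface. Bound receptors recruit the adaptor Frs2 and drive the Ras and MAP kinase cascade, and Sprouty and Spred proteins dampen it. In the brain, Fgf1 is a neuronal and glial ligand that lacks a classical secretion signal, as does Fgf2, a ligand long associated with astrocytes. Fgf9 is mainly a neuronal ligand, and Fgf10 is known in tanycytes, the ependymal cells of the hypothalamic ventricle wall. Fgfr3 is a standard astrocyte gene, Fgfr2 is known from the oligodendrocyte lineage and Fgfr1 from neurons, astrocytes and their progenitors.

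The sequence upstream of Fgfr3, the member whose level set astrocytes furthest apart from neurons, is shown as regulatory context. The RefSeq promoter table (GRCm38.p6) held 5 of the 7 members. The run is the part of its Fgfr3 entry that lies before the gene's start in both annotations used, 200 bases at chr5:33721474-33721673 on the plus strand. Capitals mark the letters CCGCCC, the GC box GGGCGG read on the other strand.
Fgfr3: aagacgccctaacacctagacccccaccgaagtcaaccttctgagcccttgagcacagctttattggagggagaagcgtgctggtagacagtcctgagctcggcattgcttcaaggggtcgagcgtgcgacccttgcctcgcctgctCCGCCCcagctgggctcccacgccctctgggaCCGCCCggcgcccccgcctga
The window had 65.0% G or C and 2 GC box matches, and the GC box letters occur on either strand in 24.6% of 32851 promoter windows of this length. The SOX core letters ACAAAG, or CTTTGT on the other strand, were not in it and occur in 13.6% of all windows. No peak or binding data were used here, so a match is a description of letters only.

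In the GENCODE vM21 annotation of GRCm38, Fgf1 (ENSMUSG00000036585) lies at chr18:38838673-38929472 on the minus strand. Fgf2 (ENSMUSG00000037225) lies at chr3:37348346-37410108 on the plus strand, where the opposite-strand genes Fgf2os and Nudt6 overlap its ends. Fgf9 (ENSMUSG00000021974) is at chr14:58070547-58112720 and Fgf10 (ENSMUSG00000021732) at chr13:118669791-118792115, both on the plus strand. Fgfr1 (ENSMUSG00000031565) is at chr8:25513654-25575718 and Fgfr3 (ENSMUSG00000054252) at chr5:33721674-33737068, also on the plus strand. Fgfr2 (ENSMUSG00000030849) is annotated at chr7:130162451-133123350 on the minus strand. That span of 2960.9 kb comes from 1 of its 27 transcripts, and the RefSeq gene ends at 130266808 and covers 104.4 kb. The long model overlaps 69 genes, 36 of them on the same strand. Which annotation was used for counting, and whether introns and strand were used, is not given in the sources used here, so the part of overlapping genes in the Fgfr2 level of each class was not tested.

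After filters, 5208, 9829, 4946, 4135 and 5419 nuclei were used from the saline, VPA, hM3 control, CNO 1 and CNO 2 libraries, the order kept below. Median depth as deposited was 11068, 5451, 11119, 11913 and 3722.5 unique molecules (UMIs) per nucleus, so the VPA and CNO 2 libraries were the shallow ones. Pairs of libraries shared 4 to 23 cell barcodes, at most 0.374% of the smaller library. Clusters were named from marker lists: 18547 nuclei were other neurons, 4802 astrocyte-like, 2539 oligodendrocyte-like, 663 oligodendrocyte progenitor-like (OPC-like) and 449 microglia-like. The 318 OT-like nuclei (80, 123, 55, 17 and 43 per library) came from neuron sub-clusters with Oxt at or above 400 CPM (UMIs of the gene scaled to 1000000 UMIs of the class) and without GABAergic markers. In them the 3 oxytocin neuron markers summed to 1071 to 2173 CPM per library, against 53.4 to 142 in other neurons. The 9 astrocyte markers summed to 40.3 to 92.1 CPM in OT-like nuclei, with 0 to 3 of them at 0, and to 10000.4 to 13036 CPM in the astrocyte-like class. Another 95 nuclei with Oxt and GABAergic markers together are called mixed OT and stand outside these classes.

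With 1 library in 3 of the 4 groups, nothing was tested, and an exact permutation test over 1 and 2 libraries could not go below 0.33. Brackets give exact 95% intervals that cover counting error only, not differences between animals or preparations. Ratios are log2 after adding 10 CPM to each level, which understates ratios of low genes, and a gene is called past 1.5-fold when it had at least 20 UMIs and, for CNO, when both libraries lay past the limit on the same side. Fgf1, Fgf2 and Fgfr3 were among the clustering genes of all nuclei, and Fgf1, Fgf10 and Fgfr1 among those of neurons. Fgf1 and Fgf10 were also among those of the oxytocin sub-clusters. Class and sub-cluster differences in all these genes are thus partly built in. Where the label of a group stands for 1 library, group and library cannot be told apart.

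**Figure D1:**
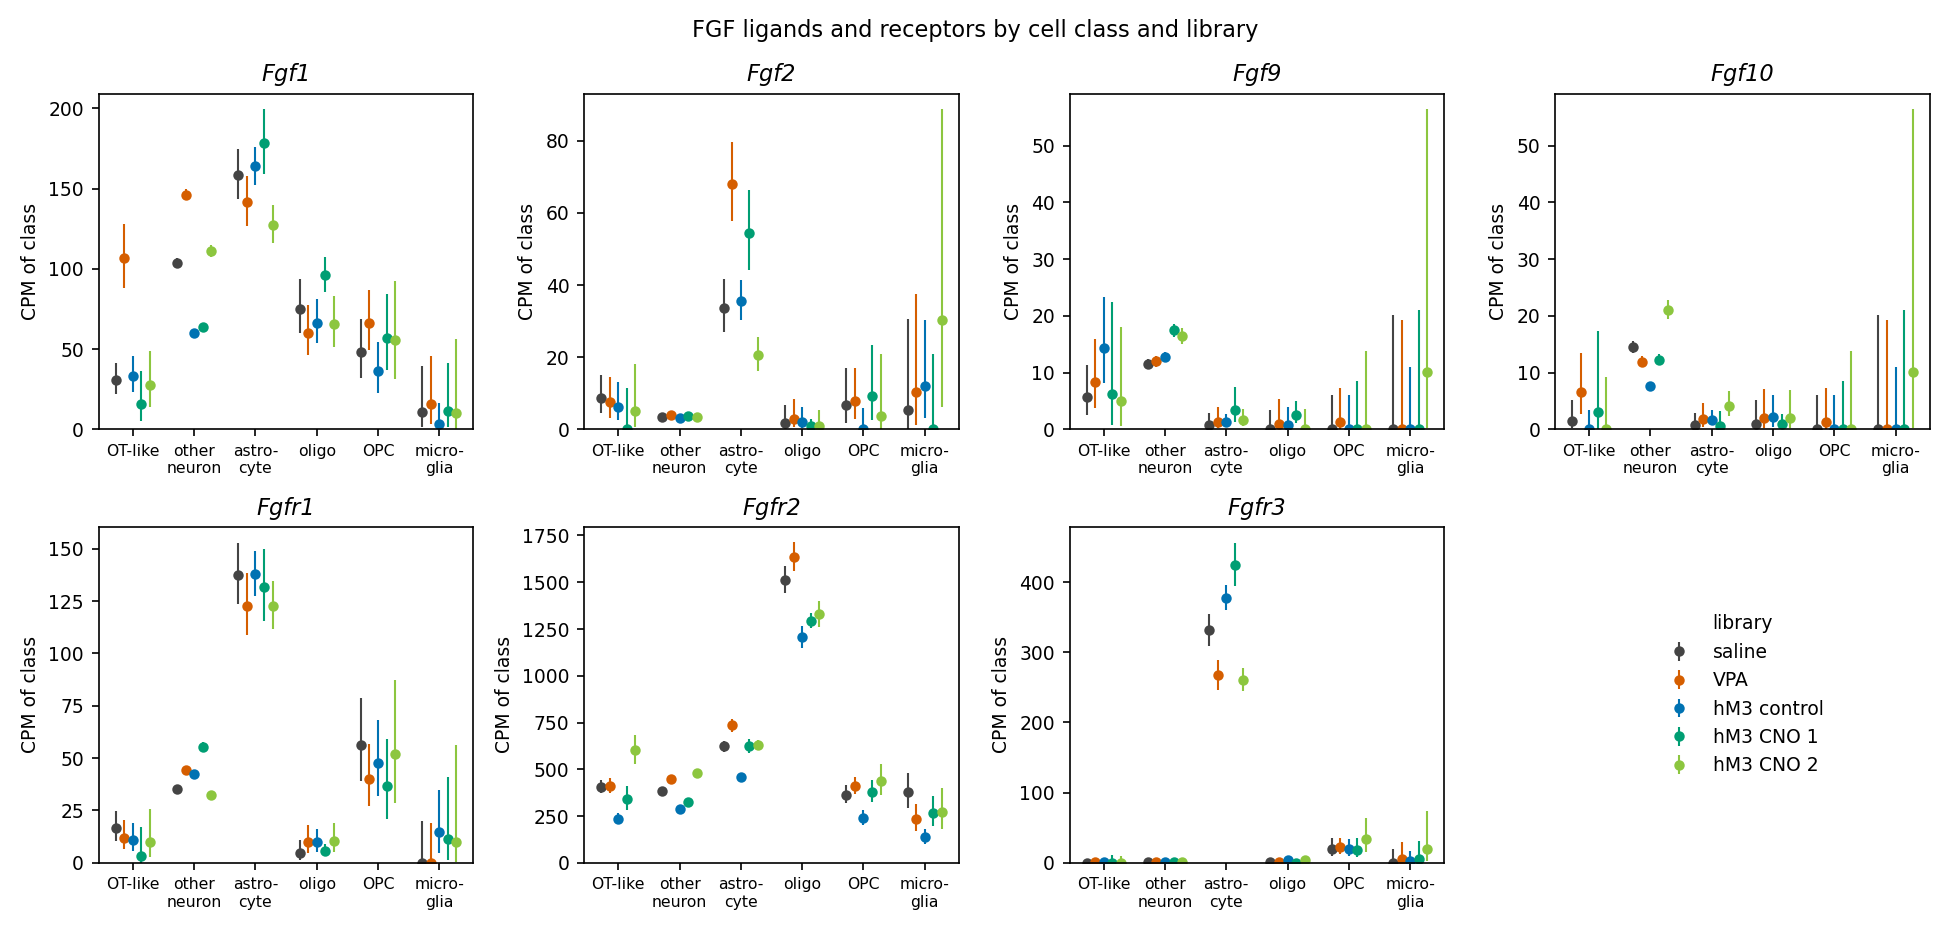
Level of each of the 7 genes (vertical axis, CPM of the class, a separate scale per gene) in 6 cell classes (horizontal axis) and 5 libraries (colours), with exact 95% counting intervals as bars. Fgfr3 stands high in astrocytes alone among these 6 classes and Fgfr2 highest in oligodendrocytes, while in OT-like nuclei the Fgf1 point of the VPA library (107 CPM) lies above those of the other libraries (15.5 to 33.3 CPM).

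The ligand Fgf1 was widely expressed. Averaged over the 5 libraries it stood at 154 ± 19.8 CPM (SD, n = 5 libraries) in astrocytes, 96.9 ± 35.9 in other neurons, 72.7 ± 14.2 in oligodendrocytes, 52.6 ± 11.2 in OPC-like nuclei and 42.7 ± 36.4 in OT-like nuclei. Microglia, which serve here as background, stood lowest of the 6 classes plotted at 10.2 ± 4.56 CPM. Ranges of neighbours in this order overlapped, so only distant classes stand apart.

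OT-like nuclei held less Fgf1 than other neurons of the same library in 5 of 5 libraries. In OT-like nuclei Fgf1 stood at 30.7 CPM in the saline library (43 UMIs; 22.2 to 41.3) and at 107 in the VPA library (115 UMIs; 88.1 to 128). It stood at 33.3 in the hM3 control (37 UMIs; 23.5 to 45.9), at 15.5 in CNO 1 (5 UMIs; 5.03 to 36.1) and at 27.4 in CNO 2 (11 UMIs; 13.7 to 49.0). The VPA library of the first experiment was thus the high one under this definition of OT-like nuclei, and the intervals of the other 4 overlapped each other. In other neurons the values were 104, 146, 59.7, 63.7 and 111 CPM. The ratio of OT-like to other neurons was 0.296 (0.214 to 0.399) in the saline library, 0.730 (0.602 to 0.878) in the VPA library, 0.558 (0.392 to 0.771) in the hM3 control, 0.243 (0.0789 to 0.568) in CNO 1 and 0.246 (0.123 to 0.441) in CNO 2. By this definition the ratio was highest in the VPA library and every interval stayed below 1. The hM3 control is VPA-exposed too, but the experiments differ in genotype, virus and age, which cannot be told apart.

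Comparing VPA with saline asks what prenatal VPA leaves behind in the young adult PVH. Of the 4 members with at least 20 UMIs in OT-like nuclei, Fgf1 was past 1.5-fold higher and none lower, where 3.11% of 9707 genes were past the limit higher and 2.46% lower. The log2 ratio of Fgf1 was 1.52 with the added 10 CPM, and 1.80 by the levels alone (1.28 to 2.34 counting interval). In other neurons none of the 7 members was past the limit, where 0.151% of 19147 genes were higher and 0.188% lower. Fgf1 came nearest there, at 0.46. In astrocytes 1 of 5 members, Fgf2, was past 1.5-fold higher, beside 2.11% of 11659 genes higher and 1.10% lower. Neither of 2 members in oligodendrocytes (7.05% of 8213 genes higher, 2.73% lower) nor any of 4 in OPC-like nuclei (7.40% of 7363 genes higher, 3.56% lower) was past it.

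The Fgf1 difference in OT-like nuclei sat unevenly within the class, but Fgf1 was among the genes that made its sub-clusters, so this split is partly built in. With the members and other FGF pathway genes left out of clustering, the log2 ratio over the class was 1.40 (35.2 CPM with saline, 110 with VPA). In the larger magnocellular-like sub-cluster, led by Gpc3 and Lgr6 (152 nuclei), Fgf1 stood at 30.5, 67.2, 42.7, 23.7 and 34.7 CPM in the library order above. In the smaller one, led by Ghr and Angpt1 (68 nuclei), it stood at 46.5, 244, 43.1, 16.6 and 17.9 CPM, from 20, 33, 8, 3 and 4 nuclei and 15, 66, 7, 1 and 1 UMIs. In the Reln-rich OT-like nuclei (98), where Reln codes for the extracellular protein reelin, it stood at 21.1, 46.8, 13.8, 0 and 20.9 CPM. In the magnocellular-like nuclei together Fgf1 was past 1.5-fold higher at 1.55, 1 of 3 members, beside 5.02% of 8421 genes higher and 3.75% lower. In the Reln-rich ones it was at 0.87 on 23 UMIs, 1 of 2 members, beside 8.04% of 5762 genes higher and 8.94% lower. The VPA value was highest in all 3 sub-clusters, and 66 of its 115 UMIs came from 33 of the 123 nuclei. The most in a single nucleus was 6 UMIs.

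Splitting the same nuclei by their own Oxt level moved the contrast. Nuclei with at least 5 Oxt UMIs and 500 CPM held Fgf1 at 32.7 CPM in the saline library (64 nuclei) and 69.5 in the VPA library (70 nuclei). Below that limit the levels were 23.3 CPM (16 nuclei) and 166 CPM (53 nuclei; 129 to 210). The minimum of 5 Oxt UMIs is harder to reach in shallow nuclei. Median depth below the limit was 16496.5 UMIs with saline and 7065 with VPA, so these sets may not be alike. When OT nuclei were defined by this limit among all neurons, in place of sub-clusters, Fgf1 read 43.4 CPM with saline and 69.2 with VPA, a log2 ratio of 0.57, which is not past 1.5-fold. By that definition Fgf1 stood at 46.8 CPM in the hM3 control (42 nuclei), 11.6 in CNO 1 (13 nuclei) and 74.7 in CNO 2 (48 nuclei; 54.7 to 99.7), so VPA (51.2 to 91.5) was no longer the high library. The ratio to other neurons was then 0.419, 0.473, 0.783, 0.182 and 0.674 in library order, below 1 in 5 of 5 but with an interval reaching 1.06 in the hM3 control. Keeping the mixed OT nuclei gave 1.12. Astrocyte markers summed to 53.5 CPM in the saline and 71.5 in the VPA OT-like nuclei, and their part in the result was not tested. Median depth was 15086.5 UMIs per OT-like nucleus with saline and 8270.0 with VPA. In nuclei of 5000 to 12000 UMIs the log2 ratio was 1.89 (17 and 93 nuclei, 23.7 and 115 CPM). In that band the hM3 control stood at 95.4 CPM (8 nuclei, 8 UMIs; 41.2 to 188), which overlaps VPA (92.0 to 142), and CNO 2 at 23.3 CPM. After thinning every nucleus to 2000 UMIs, 7.5% of OT-like nuclei held Fgf1 with saline and 16.3% with VPA (intervals 2.80 to 15.6% and 10.2 to 24%). Unthinned the shares were 33.8% and 39.8%, against 2.11% and 1.43% of microglia at median depths of 1907 and 1345.5 UMIs.

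**Figure D2:**
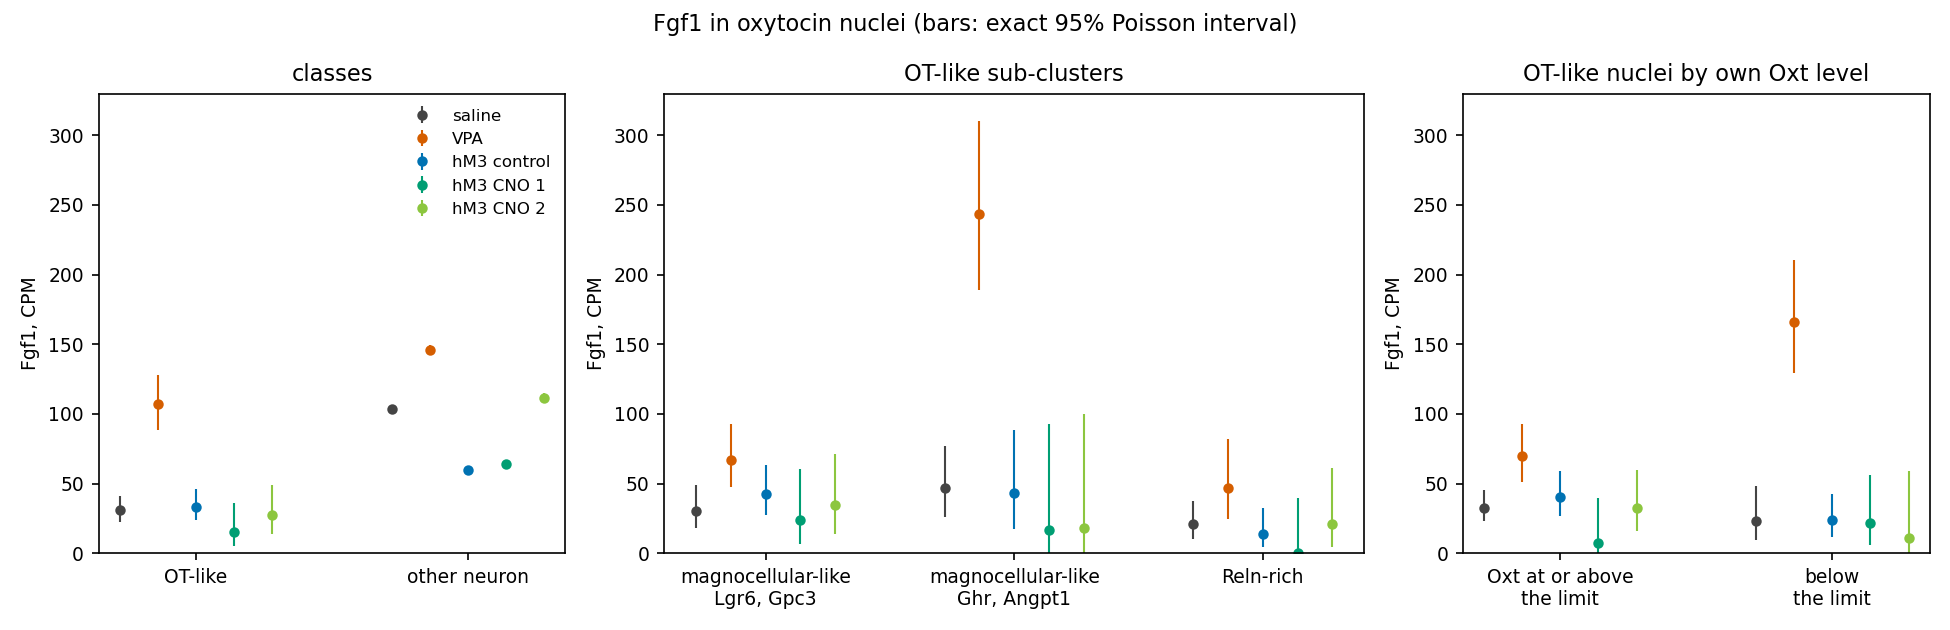
Fgf1 level (vertical axis, CPM, with exact 95% counting intervals) by library (colours) in OT-like nuclei and other neurons, in the 3 OT-like sub-clusters, and in OT-like nuclei split by their own Oxt level. The VPA point of the Ghr and Angpt1 sub-cluster (244 CPM) and that of nuclei below the Oxt limit (166 CPM) lie above every other OT-like point.

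The same contrast was not limited to oxytocin neurons. In 39 neuron sub-clusters with at least 20 nuclei in both libraries, Fgf1 was higher with VPA in 32, past 1.5-fold higher in 17 and past it lower in none. The median log2 ratio over them was 0.52, and the ratios ran from -0.42 to 2.22. No minimum of UMIs was set for these counts, and the share of all genes past the limit was not computed. The counts were not repeated at matched depth. The 3 sub-clusters with the largest ratios, named here after their values were seen, all expressed Sim1, a transcription factor of PVH neurons. The first was led by Tns1 and Agtr1a, the angiotensin receptor gene, and held no OT-like nuclei. There Fgf1 stood at 15.4 CPM in the saline library (131 nuclei; 9.55 to 23.6), 108 in the VPA library (214 nuclei; 89.8 to 129.5), 12.5 in the hM3 control (53 nuclei), 16.8 in CNO 1 (18 nuclei) and 22.9 in CNO 2 (29 nuclei). The VPA library stood apart from all 4 others, and in nuclei of 5000 to 12000 UMIs the values were 20.5, 100.1, 20, 14.8 and 31.9 CPM. The second was the Oxt-led sub-cluster that holds the magnocellular-like OT nuclei, at 41.9, 116, 44.0, 29.1 and 47.5 CPM. In the same depth band its hM3 control stood at 114 CPM (5 nuclei, 6 UMIs) beside 126 with VPA. The third was led by Avp, the vasopressin gene, and held 74.5, 166, 52.4, 33.1 and 174 CPM. In the Avp-led nuclei CNO 2 was as high as VPA.

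**Figure D3:**
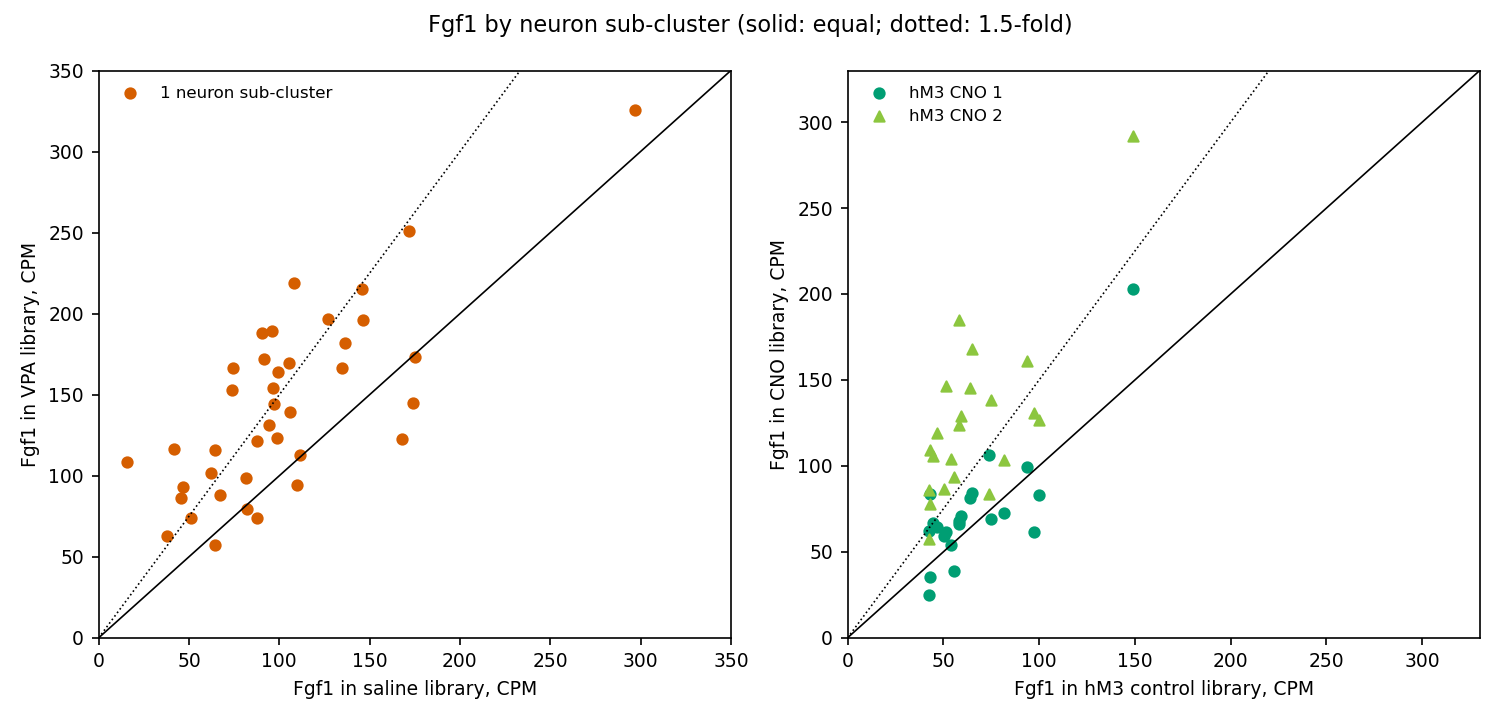
Fgf1 level in the control library (horizontal axis, CPM) and in the treated library (vertical axis, CPM) for each neuron sub-cluster with at least 20 nuclei per library, for VPA over saline on the left (39 sub-clusters) and CNO over hM3 control on the right (22, 2 points each). The solid line marks equal levels and the dotted line 1.5-fold; 32 of 39 points lie above the solid line on the left, and on the right the CNO 2 triangle lies higher than the CNO 1 circle in 21 of 22 sub-clusters.

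Across the 5 libraries, Fgf1 in other neurons ran in the reverse order of their median depth, which was 13203, 6154.5, 15981, 17227 and 10126.5 UMIs. The hM3 control and CNO 1, the 2 deepest, were the exception, at 59.7 and 63.7 CPM in the order of depth. In nuclei of 5000 to 12000 UMIs alone it stood at 118, 142, 54.2, 67.9 and 122 CPM, and the log2 ratio of VPA over saline was 0.25 in place of 0.46. The part of depth in the remaining differences was not tested.

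The CNO comparison asks what stimulating oxytocin neurons of newborn VPA-exposed mice changes later. In OT-like nuclei 1 of 3 members was past 1.5-fold lower, Fgf9, and none higher, where 1.45% of 8989 genes were lower and 2.77% higher. In other neurons 0 of 7 members were called (0.189% of 19551 genes higher, 0.00511% lower), in astrocytes 0 of 6 (1.18% of 13688 higher, 0.0511% lower) and in oligodendrocytes 0 of 3 (1.80% of 11125 higher, 0.171% lower). In OPC-like nuclei 1 of 4 was past 1.5-fold higher, Fgfr2, beside 5.87% of 7615 genes higher and 1.92% lower. For Fgf1 the log2 ratios of CNO 1 and CNO 2 over the control were -0.77 and -0.21 in OT-like nuclei, from 5 and 11 UMIs against 37. In other neurons they were 0.08 and 0.80, so CNO 1 lay near the control and CNO 2 above both. In nuclei of 5000 to 12000 UMIs Fgf1 was past 1.5-fold higher with CNO in oligodendrocytes (48.8 CPM in the control, 104 in CNO 1 and 148 in CNO 2, the last from 4 nuclei; mean 1.21) and in OPC-like nuclei (30.2, 55.2 and 95.5 CPM on 33 UMIs; 1.09). In OPC-like nuclei it was also past it with 1 CPM added (0.64, against 0.53). With the main settings Fgf1 was not called with CNO in either class. The band was chosen after seeing the data, and the share of all genes past the limit in it was not computed.

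Neuron sub-clusters differed widely in Fgf1. Pooled over libraries, the 43 sub-clusters had a median of 95.5 CPM. The highest was a Sim1-rich sub-cluster led by Pde3a and Calcr (the calcitonin receptor gene) at 270.02 CPM, with 297, 326, 149, 203 and 292 CPM by library. Next came a Sim1-rich one led by Ppp1r17, Egfr and Agtr1a at 180.3 CPM and a GABAergic one led by Cdh23 at 162 CPM. By library the Cdh23 sub-cluster held 146, 215, 99.8, 83.2 and 127 CPM, and 414 of its 653 nuclei came from the VPA library. The lowest, at 33.2 CPM, was led by Gm42418 and Syt2 and came mostly from CNO 2 (94 of 128 nuclei). Across 53 clusters of all classes, the genes whose log2 level ran most like that of Fgf1 were Eaf2 (Pearson r 0.790), Dlg5 (0.702) and Wnk3 (0.700), out of 9767 genes searched. Clusters share libraries and depth, so these are descriptions.

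The ligand Fgf2 was an astrocyte gene here, at 42.4 ± 18.8 CPM over the 5 libraries. Its range in astrocytes overlapped those of ependymal-like, mural-like and microglia-like nuclei, which had 10, 12 and 10 UMIs in all, and the CNO 2 astrocytes lay inside the microglial range of 0 to 30.4 CPM. Astrocyte Fgf2 stood at 33.7 CPM with saline (86 UMIs; 27.0 to 41.6), 68.1 with VPA (153 UMIs; 57.8 to 79.8), 35.5 in the hM3 control (169 UMIs; 30.4 to 41.3), 54.4 in CNO 1 (96 UMIs; 44.0 to 66.4) and 20.5 in CNO 2 (76 UMIs; 16.1 to 25.6). VPA was highest and CNO 2 lowest, with the saline library and the hM3 control alike within counting error. The log2 ratio of VPA over saline was 0.84, past 1.5-fold, while those of CNO 1 and CNO 2 over the control were 0.50 and -0.58, on opposite sides. Other neurons held 3.27, 3.96, 3.21, 3.58 and 3.26 CPM and OT-like nuclei 8.56, 7.43, 6.30, 0 and 4.98 CPM. Both are within that microglial range too.

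Median depth of astrocyte-like nuclei was 3522.5, 1854, 4256, 4386.5 and 2054 UMIs. After thinning to 2000 UMIs the share of astrocytes with Fgf2 was 5.18%, 12.6%, 7.62%, 10.1% and 4.09%, over 656, 454, 1011, 366 and 831 nuclei, the rest being shallower. In nuclei of 5000 to 12000 UMIs the log2 ratio of VPA over saline was 0.34, not past 1.5-fold, from 10 VPA nuclei and 27 UMIs in all. CNO 2 astrocytes came mostly from a second astrocyte cluster led by Apoe and Agt (1492 of 1584 nuclei), which held fewer of the astrocytes in the other libraries. Within the first cluster Fgf2 stood at 32.4, 68.9, 35.4, 62.4 and 26.7 CPM, the same order as in the whole class. Within the Apoe and Agt cluster it stood at 54.6 CPM (8 UMIs), 36.3 (2 UMIs), 36.1, 42.4 and 19.9 CPM, with VPA below saline on few UMIs. The overlapping genes on the other strand were low in astrocytes: Nudt6 stood at 5.10 to 11.1 CPM and Fgf2os at 0.445 to 3.92 CPM. Genes that ran most like Fgf2 across clusters were Slc7a11, the cystine transporter gene (r 0.911), Gli2, a hedgehog pathway factor (0.909), and Slc41a1 (0.904).

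Fgf9 was mainly neuronal. Other neurons held 11.4, 11.9, 12.7, 17.4 and 16.4 CPM, against 0.784 to 3.40 in astrocytes and 0 to 2.5 in oligodendrocytes. In OT-like nuclei the values were 5.71, 8.35, 14.4, 6.19 and 4.98 CPM, from 8, 9, 16, 2 and 2 UMIs, and overlapped the range of other neurons. The hM3 control was the high library. The log2 ratios of CNO 1 and CNO 2 over it were -0.59 and -0.70, past 1.5-fold on 20 UMIs in all, at the minimum for a call. The counting intervals of both levels-only ratios crossed 0 (-4.38 to 0.87 and -4.70 to 0.56). With OT nuclei defined by Oxt level the mean ratio was 0.02, and with the mixed OT nuclei kept it was -0.33, neither a call. The call was also lost with doublets kept (-0.63), with the members and pathway genes left out of clustering (-0.65), and without CNO 1 (-0.70) or CNO 2 (-0.59), where 18 UMIs remain. In other neurons the same ratios were 0.27 and 0.21. Pooled over libraries, the sub-clusters highest in Fgf9 were led by Eepd1 and Pvalb (28.2 CPM), by Gm42418 and Syt2 (27.4 CPM) and by Lef1 and Prkcd (26.7 CPM, a thalamus-type sub-cluster rich in Tcf7l2), against a median of 12.9 CPM. Most nuclei of these came from the CNO libraries. The Eepd1 sub-cluster held 28.5 and 31.8 CPM in the CNO libraries (93 and 35 of 153 nuclei), and the Gm42418 one held Fgf9 only in the hM3 control (2 UMIs) and CNO 2 (26 UMIs). The sub-cluster led by Ppp1r17 and Egfr, among the highest in Fgf1, was lowest in Fgf9 at 1.17 CPM. Genes most like Fgf9 were Gipc2 (r 0.874), Kifc2 (0.850) and Epha10 (0.842).

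Fgf10 was found in neurons and in ependymal-like nuclei. Other neurons held 14.4, 11.8, 7.55, 12.3 and 21.0 CPM. The highest sub-cluster was led by Adgrg6 and Prkch and rich in the thalamic factor gene Tcf7l2 (768 CPM). Its Fgf10 stood at 43.5, 64.2, 40.9, 33.7 and 60.7 CPM, so it was expressed there in all 5 libraries. A second thalamus-type sub-cluster, led by Lef1 and Prkcd, held 34.4 CPM pooled, with 29.2, 0 (2 nuclei), 6.36, 22.4 and 67.1 CPM by library and 111 of its 215 UMIs from CNO 2. One led by Gata3 and Otx2 held 34.0 CPM pooled, and the median over sub-clusters was 6.27 CPM. Ependymal-like nuclei held 0, 337, 30.6, 304 and 0 CPM from 9, 35, 27, 11 and 35 nuclei. Those 52 UMIs came from 3 libraries, with 33 from the VPA library, and the 35 nuclei of CNO 2 had none, which allows up to 29.5 CPM (3 UMIs).

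OT-like nuclei held little Fgf10, at 10 UMIs in all. In other neurons the log2 ratios of CNO 1 and CNO 2 over the control were 0.34 and 0.82, and only the second was past 1.5-fold. With 1 CPM added in place of 10 both were past it (mean 1.05), since the added 10 CPM weighs on levels this low. The thalamus-type markers of other neurons summed to 1320 CPM in the control, 1853 in CNO 1 and 2010.1 in CNO 2, and 1769 with saline and 1357 with VPA, so they ran in the same order as Fgf10 in the second experiment. Their part in the Fgf10 difference was not tested. The genes that ran most like it were Tmem232 (r 0.614), Col26a1 (0.610) and Otud3 (0.609), lower correlations than for the other 6 members.

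Among the receptors, Fgfr1 was high in mural-like nuclei (126 to 266 CPM, 82 UMIs in all), ependymal-like nuclei (109 to 387 CPM, 85 UMIs) and astrocytes. Astrocytes held 138, 123, 138, 132 and 123 CPM, the smallest spread of any member in that class relative to its mean (131 ± 7.52 CPM). Other neurons held 35.4, 44.2, 42.5, 55.5 and 32.4 CPM and OPC-like nuclei 56.3, 40.1, 47.5, 36.5 and 52.2 CPM, and these ranges overlapped. Oligodendrocytes held 4.64 to 10.6 CPM, below OPC-like nuclei in every library.

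OT-like nuclei held less Fgfr1 than other neurons of the same library in 5 of 5 libraries. The values were 16.4, 12.1, 10.8, 3.10 and 9.96 CPM, from 23, 13, 12, 1 and 4 UMIs, which overlap the microglial range of 0 to 14.9 CPM. The ratio to other neurons was 0.464 (0.294 to 0.699), 0.273 (0.145 to 0.468), 0.254 (0.131 to 0.445), 0.0558 (0.0014 to 0.311) and 0.307 (0.0835 to 0.789). Every interval stayed below 1. With OT nuclei defined by Oxt level the ratios were 0.581, 0.288, 0.384, 0.209 and 0.553, again with every interval below 1. Pooled over libraries, the neuron sub-clusters highest in Fgfr1 were led by Cyp19a1, the aromatase gene (114 CPM), by Megf11 and Nr5a1 (91.4 CPM) and by Dock5 and Sytl4 (74.9 CPM), against a median of 41.9. By library the Cyp19a1 sub-cluster held 67.5, 138, 84.2, 119 and 134 CPM and the Megf11 one 68.4, 63.7, 80.7, 102 and 62.6 CPM, so their order turns in the saline library. The lowest, at 14.9 CPM, was the Adgrg6 sub-cluster that was highest in Fgf10. Genes most like Fgfr1 were Nr2f2 (r 0.754), Ctdspl (0.747) and Dag1 (0.747).

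Fgfr2 was the oligodendrocyte receptor. Oligodendrocytes held 1513, 1635, 1207, 1294 and 1330 CPM (1396 ± 174, SD over 5 libraries), a range above that of every other class. Committed OPC-like nuclei followed at 777 to 1203 CPM and OPC-like nuclei held 364, 409.9, 239, 379 and 439.7 CPM. Oligodendrocytes exceeded OPC-like nuclei 4.15-fold (3.61 to 4.8), 3.99-fold (3.53 to 4.51), 5.05-fold (4.26 to 6.02), 3.42-fold (2.92 to 4.01) and 3.02-fold (2.5 to 3.68) by library. Astrocytes held 622, 735, 457, 623 and 632 CPM. Other neurons held 383, 447, 289, 328 and 481 CPM and OT-like nuclei 405, 411, 235, 341 and 602 CPM, ranges that overlap. Microglia held 137 to 378 CPM.

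The high microglial value shows that Fgfr2 UMIs were found in every class. Plekha1, a gene on the other strand inside the long Fgfr2 model, also stood highest in oligodendrocytes of the 6 classes plotted, at 840.3, 1006, 686, 714 and 515 CPM. Ate1, a same-strand gene inside the model, was higher in both CNO libraries than in the hM3 control in OPC-like nuclei (65.5, 116 and 142 CPM), astrocytes (63.7, 91.2 and 122 CPM) and other neurons (52.3, 66.2 and 72.8 CPM), as Fgfr2 was. The same held in microglia (35.6, 51.2 and 60.7 CPM) and oligodendrocytes (44.3, 48.1 and 59.9 CPM). In OT-like nuclei Ate1 was not higher in both, at 52.2, 40.3 and 74.7 CPM. The part of these genes in the Fgfr2 values was not tested. Genes that ran most like Fgfr2 across clusters were Gm16168 (r 0.865), Ppp2r3a (0.791) and Daam1 (0.773). Pooled over libraries, the neuron sub-clusters highest in Fgfr2 were led by Ppp1r17 and Egfr (494 CPM), by Ebf2 and Ebf1 (448 CPM) and by Pde3a and Calcr (440.2 CPM), against a median of 392. By library they ran from 368 to 557, 345 to 567 and 296 to 591 CPM, and in CNO 2 their order was reversed. The lowest, led by Gm42418 and Syt2, held 124 CPM, with 94 of its 128 nuclei from CNO 2. By library it held 154, 100.5, 95.8, 1129 (6 nuclei, 9 UMIs) and 117 CPM.

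Between libraries Fgfr2 was lowest in the hM3 control in each of OT-like nuclei, other neurons, astrocytes, oligodendrocytes, OPC-like nuclei and microglia. In OT-like nuclei the log2 ratios of CNO 1 and CNO 2 over it were 0.52 and 1.32, of which the second was past 1.5-fold. With OT nuclei defined by Oxt level Fgfr2 stood at 256 CPM in the control and 394 and 574 in the CNO libraries, past 1.5-fold in both (mean 0.89). The share of all genes past the limit was not computed for that definition, in which CNO 1 held 13 nuclei. In OPC-like nuclei the log2 ratios of CNO 1 and CNO 2 were 0.64 and 0.85, past 1.5-fold, with levels-only intervals of 0.34 to 1.00 and 0.52 to 1.24. In microglia, where 10.1% of 5900 genes were past the limit higher and 6.78% lower, they were 0.92 and 0.95, also past it. The oligodendrocyte markers of microglia summed to 401 CPM in the control and to 717 and 1315 in the CNO libraries, with 2, 0 and 2 of 8 at 0, and their part was not tested. In the magnocellular-like part of the OT-like class they were 0.66 and 1.12, beside 3.39% of 7552 genes higher and 2.00% lower. In the Reln-rich part they were 0.27 and 1.53, so the 1 member counted was not past the limit in both, beside 5.08% of 5175 genes higher and 6.18% lower. In committed OPC-like nuclei they were 0.03 and 0.19, not a call, beside 12.3% of 4003 genes higher and 5.57% lower. In astrocytes they were 0.44 and 0.46, in oligodendrocytes 0.10 and 0.14. The ratios were above 0 in every one of these classes, and 21 of 22 neuron sub-clusters had both CNO libraries above the control, with none past 1.5-fold.

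Oligodendrocyte markers moved with Fgfr2 in OPC-like nuclei. The 8 markers summed to 164 CPM there in the hM3 control, with 4 of 8 at 0, and to 685 and 641 CPM in CNO 1 and CNO 2, with 0 and 1 at 0. Their part in the OPC-like difference was not tested. In magnocellular-like nuclei they summed to 33.4, 74.2 and 62.0 CPM. With trimmed mean scaling between the libraries of a class the OPC-like ratio was 0.60 and the magnocellular-like one 0.76, and neither was then past 1.5-fold in both CNO libraries. In nuclei of 5000 to 12000 UMIs the OPC-like ratio was 0.70 and not past it in both, with CNO 1 at 343 and the control at 254 CPM. In nuclei of 5000 to 12000 UMIs Fgfr2 in other neurons stood at 447, 439.9, 331, 430.3 and 538 CPM, so the hM3 control was lowest there too.

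For VPA over saline, Fgfr2 ratios were small: 0.02 in OT-like nuclei, 0.22 in other neurons, 0.24 in astrocytes, 0.11 in oligodendrocytes, 0.17 in OPC-like nuclei and 0.12 in committed OPC-like nuclei. In the last of these 11.7% of 4895 genes were past the limit higher and 7.52% lower. In neurons of 5000 to 12000 UMIs the ratio was -0.02. Microglia went the other way at -0.67 (levels-only interval -1.27 to -0.13), past 1.5-fold, beside 10.1% of 3851 genes past it higher and 10.8% lower, from 69 and 45 UMIs. Only 1 microglial nucleus of the VPA library reached 2000 UMIs, against 35 with saline, so no value can be given for deeper nuclei. Of 39 neuron sub-clusters 37 were higher with VPA and none past 1.5-fold.

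**Figure D4:**
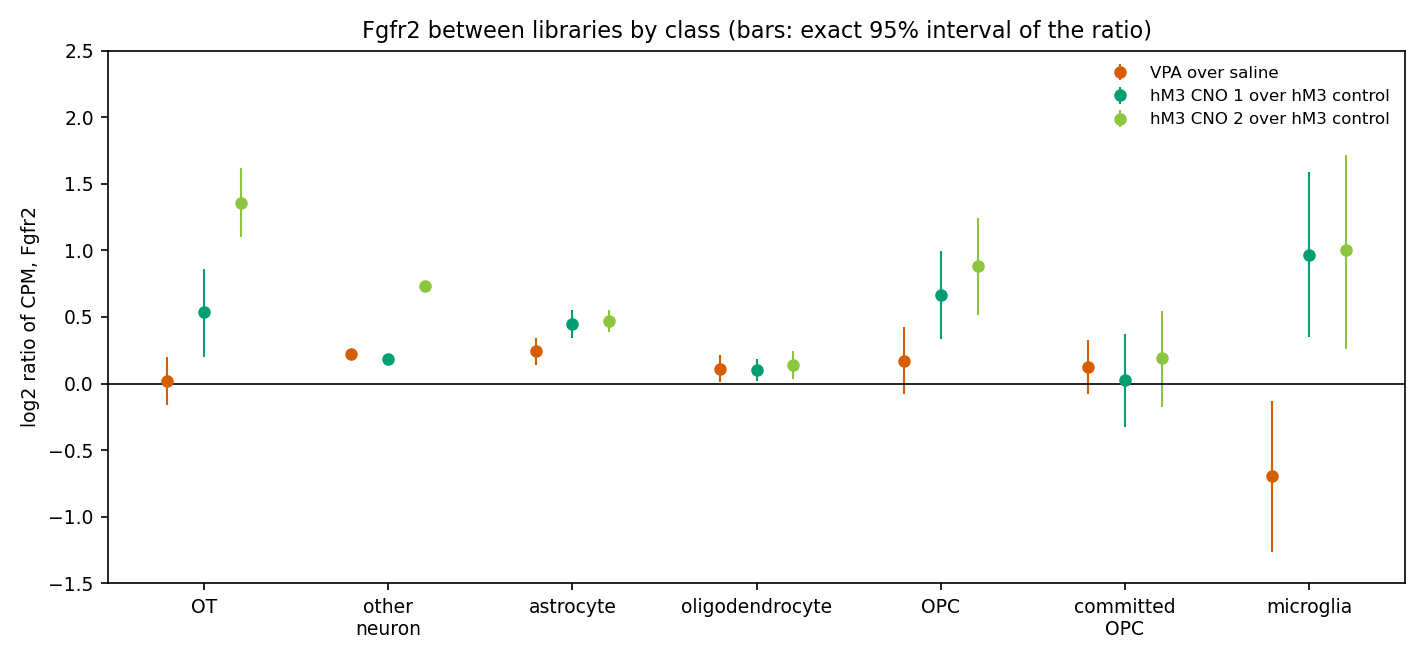
Ratio of Fgfr2 levels between libraries (vertical axis, log2 of the CPM ratio without added CPM, bars giving exact 95% counting intervals) in 7 cell classes (horizontal axis). CNO over hM3 control lies above 0 in every class and both libraries, and VPA over saline lies near 0 except in microglia.

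Fgfr3 was highest in astrocytes, and as a clustering gene it helped to define them. Astrocytes held 331, 267, 378, 424 and 260.5 CPM, a range above that of every other class. Other neurons held 0.657 to 1.63 CPM, from 257 UMIs over 18547 nuclei, and OT-like nuclei 2 UMIs in all. The ratio of astrocytes to other neurons was 504, 264, 329, 389.9 and 159.6-fold. OPC-like nuclei held 19.9, 22.0, 19.6, 18.3 and 33.5 CPM, from 58 UMIs in all, and mature oligodendrocytes 0.312 to 3.86 CPM.

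Astrocyte Fgfr3 was lowest in the 2 libraries with the shallowest astrocytes, VPA and CNO 2. The log2 ratio of VPA over saline was -0.30, and those of CNO 1 and CNO 2 over the control were 0.16 and -0.52, none past 1.5-fold. Thinned to 2000 UMIs, 48.6%, 40.7%, 53.2%, 56.8% and 40.1% of astrocytes held an Fgfr3 UMI. Within the first astrocyte cluster Fgfr3 stood at 329.8, 266, 390.1, 433 and 264 CPM and within the Apoe and Agt cluster at 355, 309, 329, 411 and 260.2 CPM, the same 2 libraries being lowest in both. The genes that ran most like Fgfr3 were Acsbg1 (r 0.988), Ntsr2 (0.988) and Agt (0.977), and Ntsr2 and Agt are also on the astrocyte marker list.

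The other genes of the pathway were taken as 8 lists with 74 genes in all, every one in the files: other secreted ligands (14), intracellular FGF-homologous factors (4), other receptors and co-receptors (7), heparan sulfate proteoglycans (10), FGF-binding and release (5), adaptors and kinases (20), feedback inhibitors (11) and target transcription factors (3). For VPA over saline, 1 of 36 measured at 20 UMIs or more was past 1.5-fold higher and 1 lower in OT-like nuclei, 0 of 65 either way in other neurons, 2 of 49 higher in astrocytes, 3 of 30 higher in oligodendrocytes and 0 of 38 in OPC-like nuclei. The shares over all genes are those given above for each class, and 1 of 36 lower in OT-like nuclei is near the 2.46% there. In committed OPC-like nuclei 4 of 26 were higher and 1 lower (11.7% and 7.52% of all genes), and in microglia 3 of 24 and 2 (10.1% and 10.8%). Their median log2 ratio was 0.04 in OT-like nuclei, 0.01 in other neurons and 0.03 in astrocytes, beside 0.02, 0.02 and 0.04 over all genes tested.

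In OT-like nuclei Flrt2, a membrane protein that binds FGF receptors, stood at 127 CPM with saline and 79.8 with VPA (log2 ratio -0.61). The intracellular factor gene Fgf11, the only one higher, had 10 and 20 UMIs, and as its count is under 50 it was named outside the rule for named genes. In astrocytes Flrt3 stood at 9.41 and 21.8 CPM (0.71) and Syt1, a synaptotagmin that acts in FGF release, at 80.0 and 157 CPM (0.89). In oligodendrocytes Syt1 stood at 67.8 and 142 CPM (0.96) and Fgf14, a sodium channel partner, at 142 and 309 CPM (1.07). Syt1 and Fgf14 are abundant in neurons, and Syt1 is 1 of the 8 neuron markers, which summed to 2918 CPM in astrocytes with saline and 3374 with VPA and to 907 and 1550.2 CPM in oligodendrocytes. Their part was not tested. The third gene in oligodendrocytes was Nras, which at 46 UMIs is also outside the rule. In committed OPC-like nuclei the glypican gene Gpc5 stood at 112 and 197 CPM (0.77) and Frs2 at 88.3 and 148 CPM (0.69). In microglia Braf stood at 175 and 291 CPM (0.70), Fgf14 at 229.9 and 364 CPM (0.64) and Frs2 at 169.7 and 104 CPM (-0.66). In Reln-rich OT-like nuclei 1 of 28 was higher and 1 lower (8.04% and 8.94% of all genes): Flrt3 stood at 53.7 and 89.8 CPM (0.65) and Gpc3, on 20 UMIs and outside the rule, at 30.7 and 15.6 CPM (-0.67).

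For CNO over hM3 control, 1 of 35 pathway genes was past 1.5-fold lower in OT-like nuclei, beside 1.45% of all genes, and 0 of 65 in other neurons, 0 of 52 in astrocytes, 0 of 40 in oligodendrocytes and 0 of 39 in OPC-like nuclei were past it in either direction. In committed OPC-like nuclei 4 of 21 were higher and 0 lower (12.3% and 5.57% of all genes), in microglia 4 of 28 and 3 (10.1% and 6.78%), and in Reln-rich OT-like nuclei 2 of 27 and 3 (5.08% and 6.18%). The gene in OT-like nuclei was Gpc3, a glypican that carries heparan sulfate, at 181 CPM in the control, 55.7 in CNO 1 and 72.2 in CNO 2 (mean log2 ratio -1.37). Gpc3 leads the larger magnocellular-like sub-cluster, which held 30 of 55 OT-like nuclei in the control, 9 of 17 in CNO 1 and 21 of 43 in CNO 2. In the magnocellular-like nuclei alone Gpc3 stood at 259, 78.6 and 112 CPM (-1.35).

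The other pathway genes past the limit with CNO were in classes of few nuclei. In committed OPC-like nuclei (29, 17 and 19 nuclei) Gpc5 stood at 108 CPM in the control and 441 and 1515 in the CNO libraries (3.06), Syt1 at 77.3, 456 and 557 (2.56), Fgf14 at 325, 1038 and 1122 (1.70) and Fgf12 at 301, 867 and 557 (1.21). The 8 neuron markers, Syt1 among them, summed there to 2075 CPM in the control and to 5132 and 5365 in the CNO libraries, with none at 0. In microglia Gpc6 stood at 35.6, 256 and 263 CPM (2.56), Fgf12 at 74.3, 501 and 132 (1.95), Fgf14 at 229, 723 and 395 (1.25) and the target factor gene Etv5 at 163, 39.8 and 101 (-1.11). The neuron markers summed in microglia to 1449.6 CPM in the control and to 4080.0 and 2074 in the CNO libraries, with 0, 1 and 0 of 8 at 0, and their part in either class was not tested. In Reln-rich OT-like nuclei Pik3ca stood at 157, 32.0 and 90.4 CPM (-1.23) and Map2k1 at 129.8, 74.6 and 76.5 (-0.71), where CNO 1 held 5 nuclei.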

How the data were processed

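Single-nucleus libraries from 5 pools of mouse PVH nuclei were analysed from the authors' deposited filtered matrices, whose values are raw UMI counts per gene and nucleus. Per the submitters' processing notes they were made with Cell Ranger 7.0.1 on mm10. The counting of introns and strand is not given in the sources used here.

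The UMI minimum per nucleus was 1000 and the mitochondrial maximum 5%, and the highest doublet scores were removed at 0.8% per 1000 nuclei (3.48 to 8.76% per library). Clusters used 2000 variable genes without Oxt and Avp, 30 principal components, 20 neighbours and Leiden resolution 1 (32 clusters), and 2 within neurons (44 sub-clusters). Names came from marker lists, so differences from the study may come from rebuilt names. Raw counts were summed per class and library and divided by the class total. No test was made: 3 of the 4 groups had 1 library, and a fit would take its spread from the 2 CNO libraries alone. Intervals are exact 95% Poisson, binomial or conditional binomial ones, at sums of 52506958 to 76243280 UMIs per library as deposited. The contrast and interval code was checked on simulated data.

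Members and gene lists were chosen with earlier results of these data known. Named were the 7 members, pathway genes past 1.5-fold with at least 50 UMIs (at most 4 per class and contrast), the 3 genes and the 3 neuron sub-clusters per member that were most alike or highest; exceptions are said where they occur. One result under this rule is not reported here. The depth band of 5000 to 12000 UMIs and the keeping of mixed OT nuclei were chosen after seeing the data. Classes mixed, unnamed and choroid plexus-like (1 library) were left out. Versions: leidenalg 0.10.2, igraph 0.11.9, scikit-learn 1.9.0, scipy 1.17.1, pandas 2.3.3, numpy 2.4.6, matplotlib 3.10.9, Python 3.11.15.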

Additional observations from a re-analysis of the deposited data

Results flagged for a closer look

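Effects of opposite direction in different cell classes drew attention to 3 genes, and none of these differences was tested. Fgf1 was higher with VPA than with saline in OT-like nuclei (log2 ratio 1.52) and lower in astrocytes (-0.15) and oligodendrocytes (-0.28), where the counting intervals crossed 0. Fgf2 was higher with VPA in astrocytes (0.84), while in OT-like nuclei the ratio was -0.0914, from 12 and 8 UMIs. Fgf9 was lower with CNO than in the hM3 control in OT-like nuclei (-0.65) and slightly higher in other neurons (0.24).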

How the results depend on the processing

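The Fgf1 ratio of VPA over saline in OT-like nuclei (1.52) fell to 0.57 with OT nuclei defined by Oxt level and to 1.12 with mixed OT nuclei kept. That of CNO over hM3 control (-0.46) was -2.28 in nuclei of 5000 to 12000 UMIs (13 UMIs), 0.11 with mixed OT nuclei kept, and -0.21 to -0.77 with either CNO library left out. Fgf9 with CNO in OT-like nuclei reversed in the depth band (0.30, from 1 UMI) and by Oxt level (0.0223). Of 430 member ratios under alternatives, 368 stayed within the counting interval of the ratio (VPA) or 1 SD of the 2 libraries (CNO). For CNO with 1 library left out, staying within that SD is largely built in, since the SD comes from the same 2 libraries. Without CNO 1, where only CNO 2 had to pass the limit, Fgf1 (0.80), Fgfr2 (0.71) and Fgf10 (0.82) in other neurons were past 1.5-fold.

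Counts of genes past 1.5-fold moved with the added CPM and the minimum count. With 1 CPM added in place of 10, VPA over saline gave 1471 in place of 541 in OT-like nuclei, 541 in place of 65 in other neurons, 1723 in place of 374 in astrocytes, 1666 in place of 803 in oligodendrocytes and 1463 in place of 807 in OPC-like nuclei. CNO over control gave 782 for 379, 336 for 38, 989 for 169, 1200 for 219 and 1002 for 593 in the same classes. At a minimum of 100 UMIs, VPA gave 127 in OT-like nuclei, 202 in astrocytes, 175 in oligodendrocytes and 78 in OPC-like nuclei, and CNO gave 67, 137 and 54 in OT-like nuclei, oligodendrocytes and OPC-like nuclei. At a minimum of 1 UMI the OPC-like counts were 1771 (VPA) and 974 (CNO) and the OT-like count 581 (CNO). With either CNO library left out the CNO counts were 1498 to 1553, 92 to 566, 479 to 1060, 494 to 1623 and 1102 to 1431 in the 5 classes. That rule is looser, as only 1 library then has to lie past the limit. Trimmed mean scaling gave 144 in oligodendrocytes, 104 higher and 40 lower, in place of 200 and 19. Their median gene lay 0.10 above 0.

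Some small classes could not be named with doublets kept and have no value there. No paired analysis was possible because the groups compared share fewer than 2 replicate numbers. CNO 1 held 17 OT-like nuclei, which limits its values there.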

Other observations

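In the astrocyte cluster led by Apoe and Agt, Gm4951, an interferon-induced GTPase gene, stood at 0 CPM in the saline and VPA libraries and at 499, 278 and 295 CPM in the hM3 control, CNO 1 and CNO 2. The saline and VPA values come from 37 and 27 nuclei, and their intervals reach 25.2 and 67.0 CPM. In the other astrocyte cluster Gm4951 stood at 0.416, 0, 139, 90.7 and 66.7 CPM. Fgf1 in the Apoe and Agt cluster stood at 129.6, 145 (8 UMIs, 62.8 to 286), 118, 136 and 122 CPM, against 160.1, 141, 176, 207 and 193.5 CPM in the other astrocyte cluster.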
